A study of Homo sapiens with 6 samples.

Results

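Glutathione, thioredoxin and NRF2 redox genes were followed in PC3 prostate cancer cells depleted of VEGF-C or of its co-receptor NRP-2. The members were 42 genes chosen by name, with earlier results of these data known. They were 17 of glutathione synthesis, peroxidases, transferases and glutaredoxins, 11 of the thioredoxin and peroxiredoxin system, 9 of NADPH supply and oxidant removal, and 5 of NRF2 and its regulators. All probe sets whose platform annotation of 2016 names only one of these genes were taken, which gave 82 of the 54675 probe sets on the array and covered 41 of the 42 genes. PRDX5 had no probe set of its own here. In all, 39 members had a probe set whose mean over the 6 arrays reached log2 4 and were tested among 11131 genes, each through its brightest probe set. The filter was not passed by GPX3, a secreted peroxidase, or OSGIN1, an NRF2 target: GPX3 stood between log2 2.01 and 2.27 and OSGIN1 between log2 2.18 and 2.24 on the 6 arrays, near the floor of the scale.

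PC3 is an established human line from a prostate cancer metastasis. The cells, kept in RPMI with 10% serum, were collected 72 h after transfection with scrambled siRNA, a VEGF-C siRNA pool from Dharmacon or an NRP-2 siRNA pool from Santa Cruz Biotechnology, with DharmaFECT as the carrier. Each group held 2 arrays, and each target was hit with a single pool, so the loss of a target and other effects of its pool or supplier cannot be told apart. Whether the 2 arrays of a group stand for separate cultures is not in the labels, and the p-values therefore cover array-to-array spread alone, which may be technical. In a bulk RNA sample, fewer cells of a kind and less RNA per cell cannot be told apart.

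Glutathione is made by glutamate-cysteine ligase and glutathione synthetase, spent by peroxidases and transferases, and returned to its reduced form by glutathione reductase with NADPH. The thioredoxin system runs in parallel: peroxiredoxins reduce peroxides, thioredoxin reduces the peroxiredoxins, and thioredoxin reductase recharges thioredoxin, again with NADPH. NRF2, encoded by NFE2L2, is held down by KEAP1 and, with a small MAF partner, activates many genes of both systems through the antioxidant response element, a site that BACH1 can occupy as a repressor.

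The core of that element, TGACNNNGC, was searched on both strands of RefSeq promoter windows (GRCh38.p14, from 250 bases before to 50 bases after a gene's start). It was found in 4384 of 27305 genes with such a window (16.1%), where a gene counted if any of its windows matched. By window the shares were 13.3% of all 35116 and 19.6% of the 51 windows of members. By gene it was found in 9 of the 34 members with a window (26.5%): GCLM, GPX2, GSTO1, GSTP1, MGST1, TXNRD1, PGD, ME1 and KEAP1. The stretches below are shown because TXNRD1 had the smallest p between the 2 depletions among these 9 genes, and GCLM, GPX2 and PGD had higher means with both siRNAs, so they were picked by their expression values. Of the other 5 genes with a match, GSTO1, GSTP1 and KEAP1 also had higher means with both siRNAs. Through its brightest probe set, MGST1 had lower means with both (−0.32 and −0.25), though its other probe sets were higher with NRP-2 siRNA. ME1 differed by +0.09 with VEGF-C and −0.30 with NRP-2 siRNA through its brightest probe set. The stretches are written along the gene's strand, capitals mark the match, and the other letters are its flanks.
TXNRD1, first start, chr12:104215654-104215805, plus strand: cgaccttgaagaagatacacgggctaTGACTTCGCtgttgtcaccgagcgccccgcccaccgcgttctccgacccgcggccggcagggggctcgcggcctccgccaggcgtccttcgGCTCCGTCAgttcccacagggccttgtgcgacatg
TXNRD1, second start, chr12:104286904-104286964, plus strand: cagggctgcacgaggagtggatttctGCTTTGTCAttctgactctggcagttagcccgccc
GCLM, chr1:93909430-93909490, minus strand: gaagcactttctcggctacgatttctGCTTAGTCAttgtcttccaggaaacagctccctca
GPX2, chr14:64942833-64942893, minus strand: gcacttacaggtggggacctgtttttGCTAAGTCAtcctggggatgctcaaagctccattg
PGD, chr1:10398837-10398897, plus strand: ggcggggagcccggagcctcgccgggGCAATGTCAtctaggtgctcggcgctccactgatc
A match is only a run of letters in this window and was not tested as a site. Windows of GCLC, SRXN1, NQO1, NFE2L2 and BACH1 hold no match, which says nothing of the factor's reach to sites farther away. The 8 members without a window, GSR, HMOX1, MGST2 and PRDX1 among them, were not searched.

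The targeted genes differed on their arrays in the direction of the labels. VEGFC stood at log2 11.81 and 11.80 with scrambled siRNA and at 8.46 and 7.27 with VEGF-C siRNA, and NRP2 stood at 4.77 and 4.92 with scrambled siRNA and at 3.41 and 2.81 with NRP-2 siRNA. The differences were −3.95 for VEGFC (limma unadjusted p = 9.44e-05, adjusted p = 0.204) and −1.74 for NRP2 (limma unadjusted p = 0.000868, adjusted p = 0.213). Neither silenced target passed the adjusted test, so a member without an adjusted call cannot be taken as unchanged. On the VEGF-C arrays NRP2 stood at 5.51 and 6.01, higher than with scrambled siRNA by +0.91 (limma unadjusted p = 0.0157, adjusted p = 0.257). All 7 epithelial line markers (KRT8, KRT18, KRT19, EPCAM, CDH1, VIM and CD44) lay between log2 11.74 and 14.80. Of the markers of other cells, 2 of 6 for fibroblasts (COL1A1 and COL3A1), 1 of 4 for endothelium (PECAM1) and 0 of 5 for leukocytes passed the filter. Only 3 of the 5 leukocyte markers had a probe set of their own here, so the others could not pass. COL1A1 differed by −0.70 after VEGF-C siRNA and −0.84 after NRP-2 siRNA (limma unadjusted p = 0.032 and 0.0159). COL3A1 differed by −0.33 and +0.36 with the VEGF-C and NRP-2 siRNAs, and PECAM1 by −0.86 and −0.005. Of 6 genes listed as low or absent in PC3, 3 had a probe set of their own, and TMPRSS2 and KLK3 passed the filter. TMPRSS2 lay between log2 7.02 and 9.25 and differed by −1.57 with NRP-2 siRNA (limma unadjusted p = 0.00923). KLK3 lay between 6.26 and 6.87 and differed by +0.48 with VEGF-C siRNA (limma unadjusted p = 0.00955). The part of these genes in the members' values was not tested. The arrays of a group differed in the mean of 31 G2 and mitosis genes, at log2 10.29 and 8.59 on the scrambled arrays, 11.17 and 10.44 on the VEGF-C arrays, and 11.02 and 9.97 on the NRP-2 arrays. All 31 genes had higher group means with both siRNAs (median differences +1.32 and +1.02). An adjustment for their mean can therefore also remove part of a difference that goes with the siRNA. Over all probe sets, the second NRP-2 array correlated with the second scrambled array at a Pearson r of 0.9974, against 0.9956 with the other NRP-2 array. All differences below are log2 differences between group means, with the standard error (SE) and p-values of limma's moderated test, adjusted by the Benjamini-Hochberg method over all 11131 genes.

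Most redox genes stood a little higher after VEGF-C depletion, and no single one passed the adjusted test. Of the 39 members measured, 28 had a difference above 0 and 11 below 0, with a median of +0.16 against −0.004 over all genes. None had an adjusted p under 0.05 (lowest 0.231), as for all genes, of which 0% passed. At an unadjusted p under 0.05, 4 members were higher (BACH1, GCLC, SRXN1 and NFE2L2), which is 10.3% against 6.95% of all genes, and 1 was lower (MGST1), which is 2.56% against 7.80%. Both VEGF-C arrays lay above both scrambled arrays for 21 members (53.8%, against 26.8% of all genes) and below them for 7 (17.9%, against 26.6%). The count of 5 members at an unadjusted p under 0.05 was 2 without either scrambled array, 9 without either NRP-2 array, and 1 with an adjustment for the G2 and mitosis mean, where the median was +0.09. The shares of all genes higher and lower moved with them, to 4.87% and 4.47% without the first scrambled array, 2.78% and 3.21% without the second, 8.80% and 9.07% without either NRP-2 array, and 3.58% and 3.76% with the adjustment.

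With NRP-2 depletion the shares of members past the unadjusted threshold lay at or below those of all genes, and many members were highest on the first NRP-2 array. Against scrambled siRNA, 26 of 39 members had a difference above 0 and 13 below 0, with a median of +0.13 against +0.01 over all genes. None had an adjusted p under 0.05 (lowest 0.227), as for all genes (0%). At an unadjusted p under 0.05, 2 were higher (MGST2 and BACH1), which is 5.13% against 6.43% of all genes, and 2 were lower (GSR and TXNRD1), which is 5.13% against 6.85%. Arrays did not overlap for 15 members on the higher side (38.5%, against 25.3% of all genes) and for 7 on the lower side (17.9%, against 24.4%). The count of 4 was 1 without the first scrambled array or without the first NRP-2 array, 2 without the second scrambled array, and 13 without the second NRP-2 array, where 12.7% of all genes were higher and 11.6% lower at that threshold. In the other 3 fits 3.65% to 3.85% of all genes were higher and 2.90% to 3.91% lower. The median was +0.03 without the first NRP-2 array and +0.31 without the second.

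Compared directly, the smallest p-values between the 2 depletions were those of MGST2, TXNRD1, GCLC, GSR, SRXN1 and GSTK1. Of the 39 members, 17 were higher and 22 lower with NRP-2 siRNA than with VEGF-C siRNA, with a median of −0.02 against +0.02 over all genes, and none had an adjusted p under 0.05 (lowest 0.118, with 0% of all genes called). At an unadjusted p under 0.05, 2 were higher (MGST2 and GSTK1), which is 5.13% against 9.54% of all genes, and 4 were lower (TXNRD1, GCLC, GSR and SRXN1), which is 10.3% against 8.66%. Arrays did not overlap for 9 members on the higher side (23.1%, against 24.1%) and 10 on the lower side (25.6%, against 22.4%). The count of 6 was 3 without either scrambled array (7.08% of all genes higher and 6.32% lower) and 10 without the second NRP-2 array (10.9% and 10.6%). Both contrasts with scrambled siRNA use the same 2 scrambled arrays, so their values are given side by side and not set against each other.

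**Figure D1:**
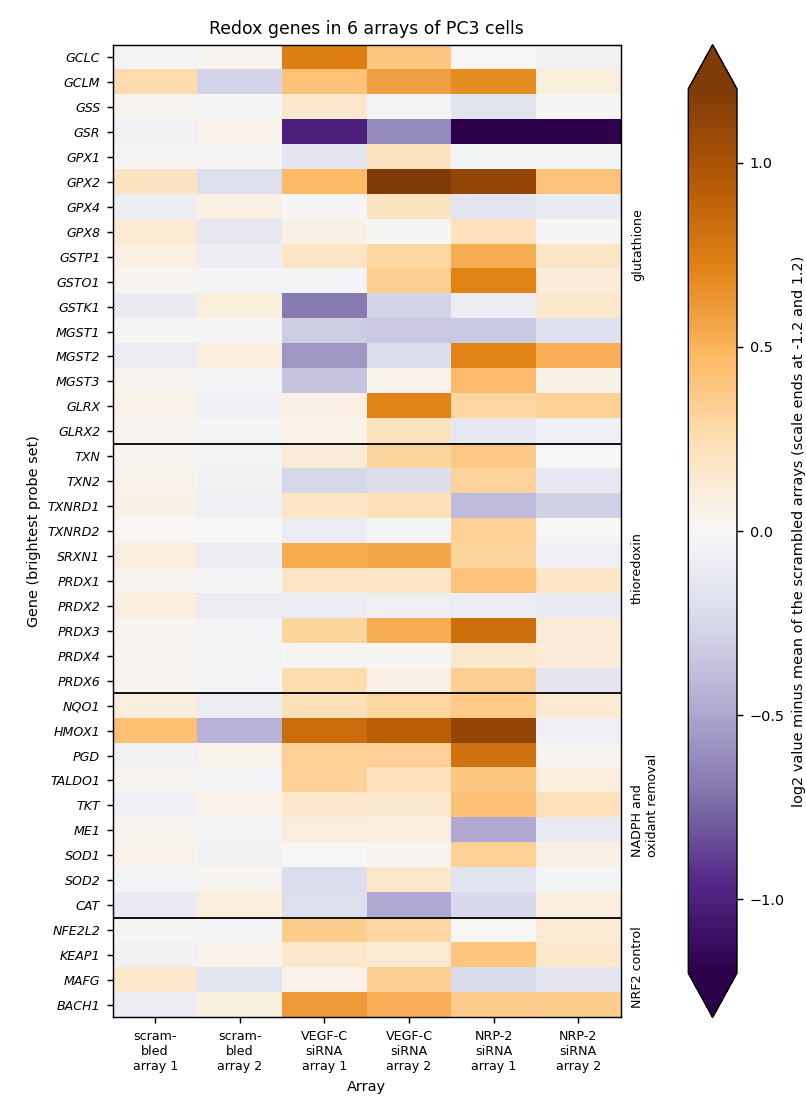
Each row is one of the 39 measured members, ordered by class, and each column one of the 6 arrays. Colour gives the array's log2 value minus the mean of the 2 scrambled arrays. GSR is the row with the most negative colours, at log2 9.28 and 10.56 with NRP-2 siRNA against 11.87 and 11.95 with scrambled siRNA.

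Glutathione synthesis was measured through both subunits of glutamate-cysteine ligase and through the synthetase. GCLC, which carries the active site of glutamate-cysteine ligase, stood at log2 11.55 and 11.61 on the scrambled arrays, 12.32 and 11.97 on the VEGF-C arrays, and 11.58 and 11.54 on the NRP-2 arrays. Both VEGF-C arrays lay above the other 4 arrays, while the NRP-2 arrays overlapped with the scrambled ones. The difference was +0.56 (SE 0.15, n = 2 arrays per group; limma unadjusted p = 0.0126, adjusted p = 0.251) with VEGF-C siRNA, which is 1.48-fold. With NRP-2 siRNA it was −0.02 (unadjusted p = 0.918, adjusted p = 0.97), and its sign turned when arrays were shifted to equal medians (+0.01). The direct comparison of NRP-2 with VEGF-C siRNA gave −0.58 (limma unadjusted p = 0.0112, adjusted p = 0.165). A second GCLC probe set had the same signs and smaller differences with VEGF-C siRNA, at +0.25 against scrambled siRNA and −0.28 in the direct comparison.

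GCLM, the modifier subunit that raises the ligase's activity, stood at log2 11.36 and 10.83 on the scrambled arrays, 11.51 and 11.68 on the VEGF-C arrays, and 11.77 and 11.18 on the NRP-2 arrays. Through this brightest probe set the VEGF-C arrays lay above both scrambled arrays, and the scrambled arrays themselves were 0.53 apart in log2 value. Its differences were +0.50 (SE 0.27) after VEGF-C siRNA and +0.38 after NRP-2 siRNA, at limma unadjusted p of 0.115 and 0.211. The dimmer GCLM probe sets gave +0.15 each with VEGF-C siRNA, and their VEGF-C arrays overlapped with the scrambled ones. With NRP-2 siRNA they gave +0.49 and +0.39 without overlap. The GCLM probe sets differed in sign in the direct comparison, where the brightest gave −0.12 and the mean of all gave +0.15. GSS, which adds glycine in the last step, differed by +0.06 and −0.09 with the VEGF-C and NRP-2 siRNAs.

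GSR, glutathione reductase, had the widest difference of the 39 members in the NRP-2 comparison. It stood at log2 11.87 and 11.95 on the scrambled arrays, 10.90 and 11.29 on the VEGF-C arrays, and 9.28 and 10.56 on the NRP-2 arrays. Through this brightest probe set the groups did not overlap in any of the 3 comparisons, and the NRP-2 arrays were themselves 1.27 apart in log2 value. With NRP-2 siRNA the difference was −1.99 (SE 0.42, 95% interval −3.04 to −0.94; limma unadjusted p = 0.00406, adjusted p = 0.227), which is 3.96-fold lower. With VEGF-C siRNA it was −0.81 (95% interval −1.86 to +0.23; unadjusted p = 0.104, adjusted p = 0.419). NRP-2 siRNA stood below VEGF-C siRNA by a log2 difference of −1.17 (limma unadjusted p = 0.0344, adjusted p = 0.242). A second, dimmer GSR probe set gave −0.85 with NRP-2 siRNA (unadjusted p = 0.056) and −0.27 with VEGF-C siRNA, so the probe sets had the same sign and differed in size. On this dimmer probe set the VEGF-C arrays overlapped with the scrambled arrays, while the NRP-2 arrays lay below both other groups. Without the first NRP-2 array the brightest probe set gave −1.35, and without the second −2.62.

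The glutathione peroxidases had small differences, apart from GPX2. GPX4, which reduces lipid peroxides in membranes, stood at log2 13.85 and 13.99 on the scrambled arrays, 13.94 and 14.12 on the VEGF-C arrays, and 13.76 and 13.82 on the NRP-2 arrays. All 6 arrays lay within 0.36 of each other in log2 value, and the differences were +0.11 and −0.13 with the VEGF-C and NRP-2 siRNAs (95% intervals −0.22 to +0.44 and −0.46 to +0.20). GPX1, the abundant cytosolic form, differed by +0.03 and −0.02, and GPX8, a form of the endoplasmic reticulum, by +0.03 and +0.11. GPX2, an epithelial form known as an NRF2 target, differed by +1.03 after VEGF-C siRNA (95% interval −0.06 to +2.12) and by +0.76 after NRP-2 siRNA (−0.33 to +1.85). Its arrays ran from log2 8.38 to 9.52 in the VEGF-C group, so the difference came with a wide spread.

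Among the transferases the microsomal form MGST2 separated the 2 depletions most. MGST2, which joins glutathione to lipophilic substrates and can make leukotriene C4, stood at log2 10.57 and 10.75 on the scrambled arrays, 10.09 and 10.46 on the VEGF-C arrays, and 11.37 and 11.17 on the NRP-2 arrays. Scrambled arrays lay between the others: both NRP-2 arrays were above them and both VEGF-C arrays below them. NRP-2 siRNA stood above VEGF-C siRNA by a log2 difference of +1.00 (SE 0.18, 95% interval +0.55 to +1.44; limma unadjusted p = 0.00185, adjusted p = 0.118), the lowest p among the members in this comparison. Against scrambled siRNA the differences were +0.61 with NRP-2 siRNA (limma unadjusted p = 0.0158, adjusted p = 0.289) and −0.39 with VEGF-C siRNA (unadjusted p = 0.078). GSTK1, a mitochondrial and peroxisomal transferase, differed by −0.47 after VEGF-C siRNA and by +0.04 after NRP-2 siRNA. MGST1, the microsomal form that also reduces lipid hydroperoxides, differed by −0.32 with VEGF-C siRNA (limma unadjusted p = 0.043) through its brightest probe set, while its other 2 probe sets gave −0.06 each. With NRP-2 siRNA the brightest MGST1 probe set gave −0.25, and the other 2 gave +0.07 and +0.11. MGST3, GSTP1 and GSTO1 differed by −0.16, +0.24 and +0.16 with VEGF-C siRNA and by +0.26, +0.36 and +0.41 with NRP-2 siRNA. GLRX and GLRX2, the glutaredoxins that take electrons from glutathione, differed by +0.39 and +0.12 with VEGF-C siRNA and by +0.31 and −0.09 with NRP-2 siRNA. In the whole class, 11 of 16 measured members were above 0 with VEGF-C siRNA (median +0.09) and 9 of 16 with NRP-2 siRNA (median +0.07).

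**Figure D2:**
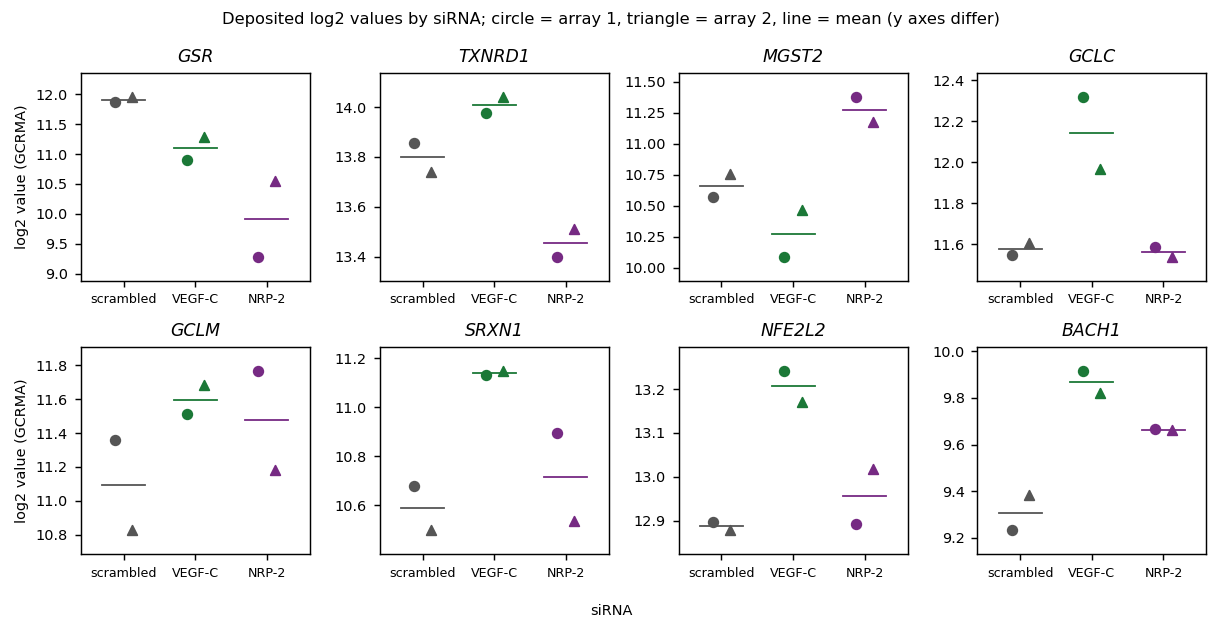
Each panel is one of 8 members, with the deposited log2 value of array 1 as a circle, that of array 2 as a triangle and the group mean as a line, for scrambled, VEGF-C and NRP-2 siRNA from left to right. The vertical axes differ between panels. GCLC and SRXN1 are highest on the 2 VEGF-C arrays, and GSR and TXNRD1 are lowest on the 2 NRP-2 arrays.

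In the thioredoxin system, the cytosolic reductase TXNRD1 had differences of opposite sign with the 2 siRNAs. TXNRD1, whose upstream matches are printed above, stood at log2 13.86 and 13.74 on the scrambled arrays, 13.97 and 14.04 on the VEGF-C arrays, and 13.40 and 13.51 on the NRP-2 arrays. No group overlapped with another, since both VEGF-C arrays lay above and both NRP-2 arrays below the scrambled arrays. The difference was +0.21 after VEGF-C siRNA (SE 0.12; limma unadjusted p = 0.146) and −0.34 after NRP-2 siRNA (unadjusted p = 0.0339, adjusted p = 0.341). The latter was −0.22 (unadjusted p = 0.0601) as the mean of all its probe sets, dim ones included, and its unadjusted p was 0.172 and 0.0772 without the first and second scrambled array, 0.103 without the first NRP-2 array and 0.0972 with the G2 and mitosis adjustment. NRP-2 siRNA stood below VEGF-C siRNA by −0.55 (95% interval −0.86 to −0.24; limma unadjusted p = 0.00512, adjusted p = 0.133). TXNRD2, the mitochondrial reductase, differed by −0.06 and +0.17 with the VEGF-C and NRP-2 siRNAs. TXN and its mitochondrial relative TXN2 differed by +0.21 and −0.22 with VEGF-C siRNA and by +0.19 and +0.09 with NRP-2 siRNA.

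SRXN1, sulfiredoxin, which repairs over-oxidised peroxiredoxins, stood at log2 10.68 and 10.50 on the scrambled arrays, 11.13 and 11.15 on the VEGF-C arrays, and 10.89 and 10.54 on the NRP-2 arrays. Both VEGF-C arrays lay above the other 4 arrays, and the NRP-2 arrays overlapped with the scrambled ones. The difference was +0.55 after VEGF-C siRNA (SE 0.16; limma unadjusted p = 0.0174, adjusted p = 0.264) and +0.13 after NRP-2 siRNA (unadjusted p = 0.472). The direct comparison gave −0.42 (limma unadjusted p = 0.0448). The sign with NRP-2 siRNA turned to −0.05 without the first NRP-2 array and to −0.03 with an adjustment for the G2 and mitosis mean.

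The peroxiredoxins had smaller differences than SRXN1 with VEGF-C siRNA. PRDX1, the abundant cytosolic form and an NRF2 target, stood at log2 13.60 and 13.56 on the scrambled arrays, 13.76 and 13.76 on the VEGF-C arrays, and 13.99 and 13.76 on the NRP-2 arrays. Both depleted groups lay above the scrambled arrays, by +0.18 and +0.29, with 95% intervals of −0.15 to +0.51 and −0.04 to +0.62. PRDX3, the mitochondrial form, differed by +0.41 and +0.47 with the VEGF-C and NRP-2 siRNAs, and its NRP-2 arrays read log2 12.95 and 12.24. PRDX2, PRDX4 and PRDX6 differed by −0.07, −0.002 and +0.16 with VEGF-C siRNA and by −0.09, +0.13 and +0.10 with NRP-2 siRNA. In this class, 6 of 10 measured members were above 0 with VEGF-C siRNA (median +0.17) and 8 of 10 with NRP-2 siRNA (median +0.13).

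**Figure D3:**
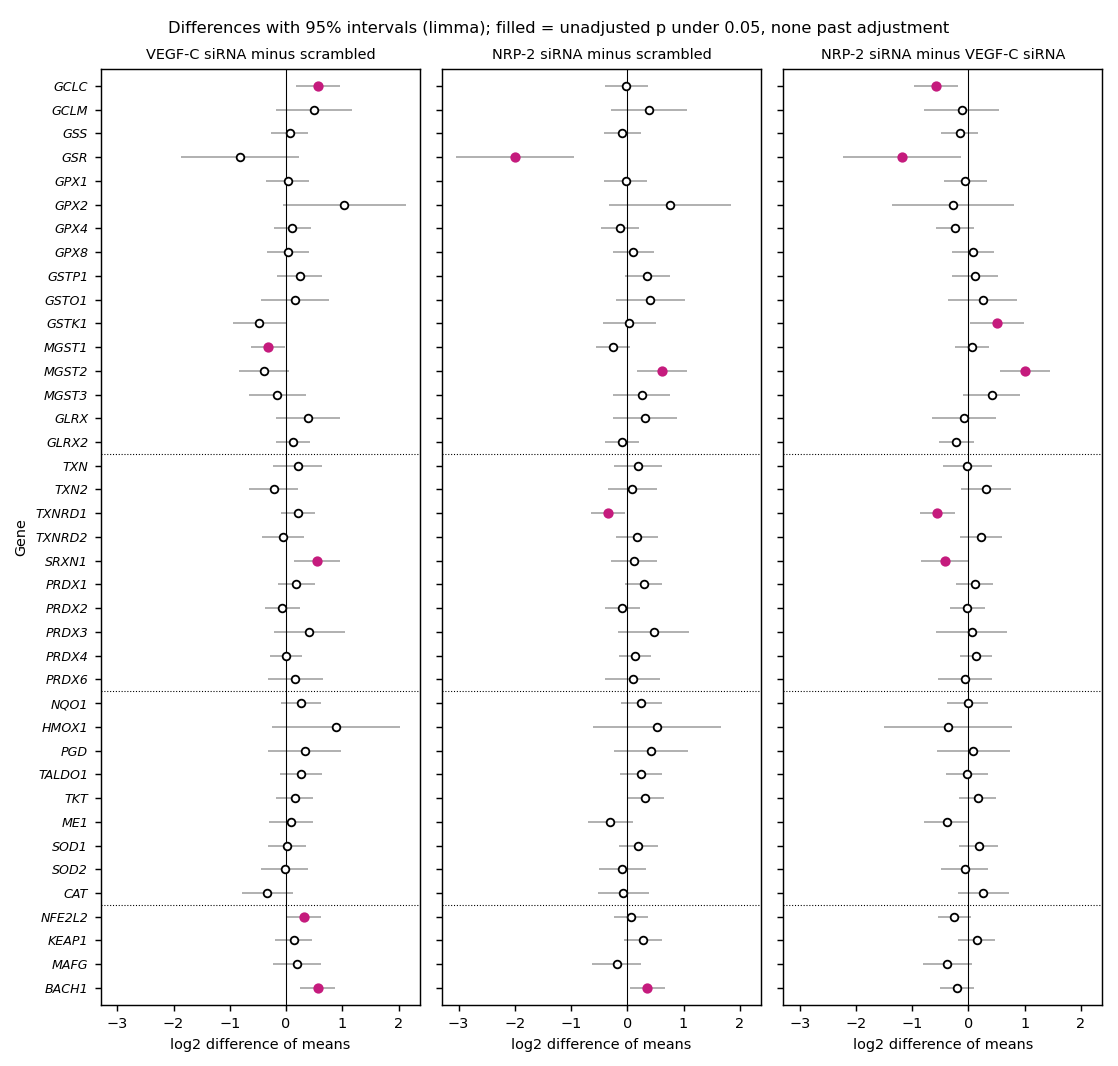
Points are log2 differences of the 39 measured members, grouped by class, in the 3 comparisons, and lines are 95% intervals from limma. Filled points have an unadjusted p under 0.05. For VEGF-C against scrambled siRNA, intervals of GCLC, SRXN1, BACH1 and NFE2L2 lie above 0 and that of MGST1 lies below 0. For NRP-2 against scrambled siRNA, intervals of MGST2 and BACH1 lie above 0 and those of GSR and TXNRD1 lie below 0.

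Most members of NADPH supply and the classical NRF2 enzymes had higher means with both siRNAs, and none of them had an unadjusted p under 0.05. NQO1, the quinone reductase most used as a readout of NRF2, stood at log2 12.37 and 12.19 on the scrambled arrays, 12.51 and 12.57 on the VEGF-C arrays, and 12.65 and 12.41 on the NRP-2 arrays. Through this brightest probe set every depleted array lay above both scrambled arrays, and the differences were +0.26 and +0.25, with 95% intervals of −0.10 to +0.62 and −0.11 to +0.61. Its next brightest probe set overlapped in both comparisons, at +0.03 and +0.01, and the third gave +0.21 and +0.19. HMOX1, which breaks down haem and is a target of both NRF2 and BACH1, stood at log2 7.64 and 6.77 on the scrambled arrays, 8.05 and 8.13 on the VEGF-C arrays, and 8.31 and 7.15 on the NRP-2 arrays. The scrambled arrays were 0.88 apart in log2 value and the NRP-2 arrays 1.16, with the lower HMOX1 value on the array with the lower G2 and mitosis mean in both groups. In the VEGF-C group, where the arrays were 0.082 apart, the lower HMOX1 value was on the array with the higher mean. The HMOX1 differences were +0.88 after VEGF-C siRNA (SE 0.45; limma unadjusted p = 0.104) and +0.52 after NRP-2 siRNA (unadjusted p = 0.296). With an adjustment for the G2 and mitosis mean, which was itself higher with both siRNAs, they were +0.08 and −0.09.

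The pentose phosphate pathway, which regenerates NADPH and recycles its sugars, was represented by 3 members. TKT, transketolase, stood at log2 12.59 and 12.69 on the scrambled arrays, 12.80 and 12.79 on the VEGF-C arrays, and 13.06 and 12.85 on the NRP-2 arrays. Both depleted groups lay above the scrambled arrays, by +0.16 and +0.32 (95% intervals −0.17 to +0.48 and −0.01 to +0.65). PGD, the second NADPH-making dehydrogenase of the pathway, differed by +0.33 and +0.42, and TALDO1, transaldolase, by +0.27 and +0.24. ME1, the cytosolic malic enzyme, which also makes NADPH, stood at log2 13.29 and 13.24 on the scrambled arrays, 13.35 and 13.35 on the VEGF-C arrays, and 12.78 and 13.15 on the NRP-2 arrays. Through this brightest ME1 probe set the NRP-2 arrays lay below the other 4 arrays. The differences were −0.30 against scrambled siRNA (95% interval −0.70 to +0.10) and −0.39 against VEGF-C siRNA (−0.79 to +0.01). A second ME1 probe set gave −0.35 and −0.16, and its NRP-2 arrays overlapped with both other groups. With VEGF-C siRNA against scrambled siRNA the brightest gave +0.09, and the mean of all ME1 probe sets gave −0.04.

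The class also holds the enzymes that remove superoxide and hydrogen peroxide. SOD1, the cytosolic dismutase, differed by +0.02 and +0.20 with the VEGF-C and NRP-2 siRNAs, and CAT, catalase, by −0.34 and −0.07. SOD2, the mitochondrial dismutase, differed by −0.02 and −0.09 through the one probe set that passed and names it alone. A further 8 probe sets name SOD2, NFE2L2 or BACH1 together with another gene and were left out. In the class, 7 of 9 members were above 0 with VEGF-C siRNA (median +0.16) and 6 of 9 with NRP-2 siRNA (median +0.24).

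Of the regulators, the transcript of NRF2 itself and that of its competitor BACH1 both stood higher on the VEGF-C arrays. NFE2L2 stood at log2 12.90 and 12.88 on the scrambled arrays, 13.24 and 13.17 on the VEGF-C arrays, and 12.89 and 13.02 on the NRP-2 arrays. Both VEGF-C arrays lay above the other 4. The difference was +0.32 after VEGF-C siRNA (SE 0.12; limma unadjusted p = 0.0404, adjusted p = 0.323) and +0.07 after NRP-2 siRNA, and a second probe set gave +0.34 and −0.06. NRF2 is controlled largely through the stability of its protein, which these arrays do not measure.

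BACH1 stood at log2 9.23 and 9.38 on the scrambled arrays, 9.92 and 9.82 on the VEGF-C arrays, and 9.67 and 9.66 on the NRP-2 arrays. All 4 depleted arrays lay above both scrambled arrays. The difference was +0.56 after VEGF-C siRNA (95% interval +0.25 to +0.87; limma unadjusted p = 0.00487, adjusted p = 0.231) and +0.36 after NRP-2 siRNA (+0.05 to +0.66; unadjusted p = 0.0304, adjusted p = 0.33). KEAP1, the adaptor that directs NRF2 to degradation, stood at log2 10.42 and 10.49 on the scrambled arrays, 10.61 and 10.58 on the VEGF-C arrays, and 10.85 and 10.62 on the NRP-2 arrays. Its depleted arrays also lay above both scrambled arrays, by +0.14 and +0.28 (95% intervals −0.19 to +0.47 and −0.05 to +0.61). MAFG, a small MAF partner, stood at log2 7.88 and 7.58 on the scrambled arrays, 7.77 and 8.08 on the VEGF-C arrays, and 7.50 and 7.59 on the NRP-2 arrays. Its differences were +0.19 and −0.19, the first of which was −0.04 as the mean of all its probe sets. All 4 measured regulators were above 0 with VEGF-C siRNA (median +0.26), and 3 of 4 with NRP-2 siRNA (median +0.17).

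Probe sets of a member mostly had the same sign. Of 19 members with more than one probe set past the filter, all probe sets had one sign in 16 after VEGF-C siRNA and in 14 after NRP-2 siRNA, each against scrambled siRNA, and in 16 between the depletions. The mixed ones were GPX8, ME1 and MAFG with VEGF-C siRNA, MGST1, MGST3, TXN2, PRDX2 and NFE2L2 with NRP-2 siRNA, and GCLM, MGST3 and PRDX2 between the depletions. None of the 62 member probe sets past the filter had an adjusted p under 0.05 among the 19946 probe sets tested in any comparison.

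**Figure D4:**
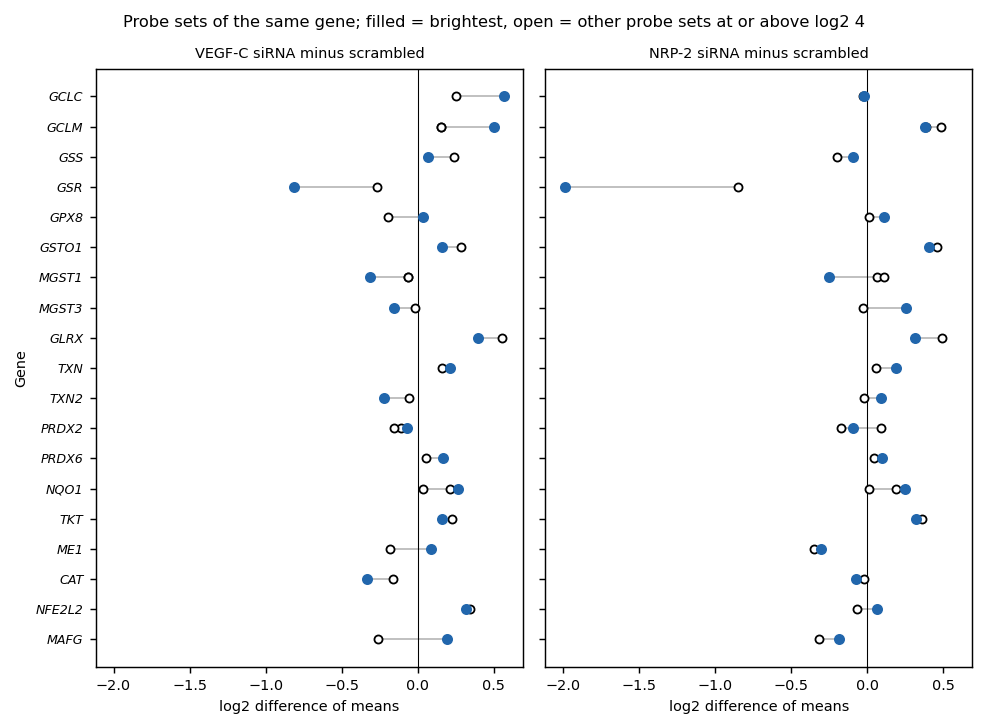
Points are the log2 differences of single probe sets at or above a mean of log2 4, for the 19 members with more than one, in both comparisons with scrambled siRNA. Filled points are the brightest probe set, which was used in the counts, and open points the others. The GSR probe sets lie at −1.99 and −0.85 for NRP-2 against scrambled siRNA.

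The members' spread lay unevenly over the arrays. The first NRP-2 array held the highest of the 6 values for 20 of 39 members (51.3%, against 26.4% of all genes) and the lowest for 7. The second scrambled array held the lowest value for 16 of 39 (41.0%, against 16.9% of all genes). The second scrambled array also had the lowest G2 and mitosis mean given above (log2 8.59). The first NRP-2 array did not stand apart in that mean (11.02, against 11.17 on the first VEGF-C array). The part of the G2 and mitosis mean in these counts was not tested.

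**Figure D5:**
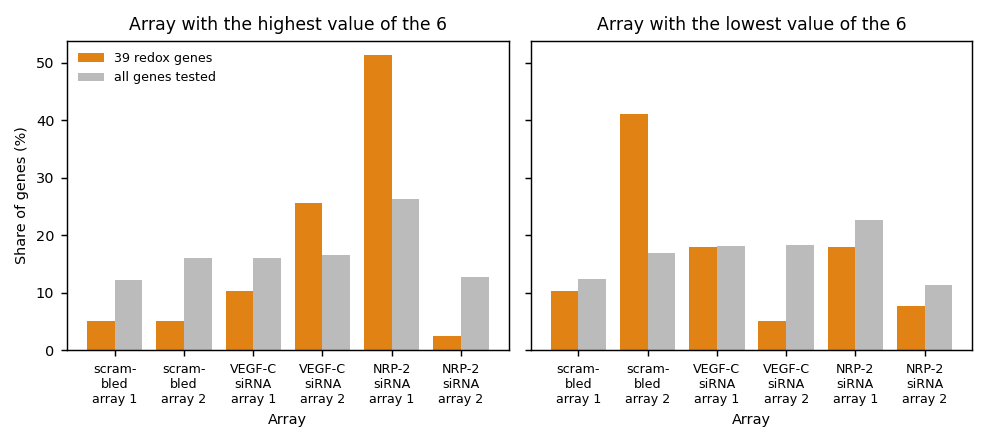
Bars give the percent of the 39 measured members, and of all 11131 genes tested, that have their highest or their lowest value on each of the 6 arrays. The first NRP-2 array stands out for the highest values (51.3% of members) and the second scrambled array for the lowest (41.0%).

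Genes around the members were taken from 6 further lists of the same pathways, and none had an adjusted p under 0.05. For cystine uptake and glutathione turnover, 11 of 15 genes were measured. At an unadjusted p under 0.05, 3 of them were higher and 1 lower after VEGF-C depletion, 0 and 0 after NRP-2 depletion, and 1 higher and 5 lower with NRP-2 than with VEGF-C siRNA. These are 27.3% and 9.09% of the list against 6.95% and 7.80% of all genes, 0% and 0% against 6.43% and 6.85%, and 9.09% and 45.5% against 9.54% and 8.66%. SLC3A2, the heavy chain of the cystine transporter, differed by +0.45 after VEGF-C siRNA (limma unadjusted p = 0.0125) and by −0.27 after NRP-2 siRNA. ABCC4, an exporter that can carry glutathione conjugates, differed by −0.78 (limma unadjusted p = 0.00733) and −0.11. Among 11 of 17 further peroxidases and transferases, 1 was higher and 1 lower with VEGF-C siRNA, and 2 and 2 with NRP-2 siRNA. These are 9.09% each way against 6.95% and 7.80% of all genes, and 18.2% each way against 6.43% and 6.85%. GSTCD differed by +0.60 and +0.41 with the 2 siRNAs, and PTGES, a prostaglandin E synthase of the same superfamily as the microsomal transferases, by −0.50 and −0.85.

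Among 16 of 18 thioredoxin-fold, glutaredoxin and methionine sulfoxide genes, 2 were higher and 1 lower with VEGF-C siRNA, and 4 and 0 with NRP-2 siRNA. Their shares are 12.5% and 6.25% of the list against 6.95% and 7.80% of all genes, and 25% and 0% against 6.43% and 6.85%. TXNDC12, a thioredoxin-like protein of the endoplasmic reticulum, stood at log2 12.01 and 12.16 on the scrambled arrays, 12.86 and 12.82 on the VEGF-C arrays, and 12.89 and 12.84 on the NRP-2 arrays. Its depleted arrays lay within 0.07 of each other in log2 value and above both scrambled arrays, with differences of +0.76 and +0.78 (limma unadjusted p = 0.0011 and 0.000943, adjusted p = 0.204 and 0.213). SESN3, a sestrin, differed by −0.35 and +0.91.

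Of 13 of 14 further NADPH genes measured, 1 was higher and 0 lower with VEGF-C siRNA, and 2 and 0 with NRP-2 siRNA. The shares, 7.69% and 0% with VEGF-C siRNA against 6.95% and 7.80% of all genes, and 15.4% and 0% with NRP-2 siRNA against 6.43% and 6.85%, rest on 1 and 2 genes. IDH1, the cytosolic NADP-linked isocitrate dehydrogenase, differed by +0.29 and +0.71, and RPIA, ribose-5-phosphate isomerase, by +0.30 and +0.47. Other pentose phosphate genes of the list, named after their values were seen, had differences of either sign, with PGLS at +0.15 and −0.14 and RPE at −0.22 and −0.04. Of 12 of 14 further NRF2 regulators, 2 were higher and 1 lower with VEGF-C siRNA, and 1 and 1 with NRP-2 siRNA, which is 16.7% and 8.33% against 6.95% and 7.80% of all genes, and 8.33% each way against 6.43% and 6.85%. NFE2L3, a relative of NRF2, differed by +0.48 and +0.76, and RXRA, a nuclear receptor that can bind NRF2, by −0.07 and −0.90. Of 22 of 24 further NRF2 targets and superoxide enzymes, 1 was higher and 0 lower with VEGF-C siRNA (4.55% and 0%, against 6.95% and 7.80% of all genes), and 2 and 0 with NRP-2 siRNA (9.09% and 0%, against 6.43% and 6.85%). AKR1C1, an aldo-keto reductase used as an NRF2 target, stood at log2 8.48 and 8.35 on the scrambled arrays, 9.51 and 9.74 on the VEGF-C arrays, and 8.48 and 8.37 on the NRP-2 arrays. Its VEGF-C arrays lay above all others, with a difference of +1.21 (limma unadjusted p = 0.00022, adjusted p = 0.204), while CBR1, a carbonyl reductase, differed by −0.19 after VEGF-C siRNA and +0.57 after NRP-2 siRNA.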

How the data were processed

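Total RNA (6 ug) from PC3 cells was labelled and hybridised to Affymetrix HG-U133 Plus 2.0 arrays, 2 for each of the 3 groups. Each probe set's deposited log2 value came from the authors' GCRMA run, with Partek as a named tool, per the submitters' processing notes; neither version is given in the sources used here. Differences of dim genes may be distorted near the floor of the scale, in a direction that was not tested, and detection calls were not used here. Probe sets annotated to several genes (1801) or to none (11721) were left out. Of the others, 19946 with a mean of at least log2 4 were tested, and a gene was represented by the brightest. One model of the 3 group means was fitted to all 6 arrays with limma 3.58.1 in R 4.3.3, two-sided, with Benjamini-Hochberg adjustment and a threshold of 0.05. The fit was tested on simulated data. The number of arrays limits the precision.

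The members and lists were chosen with earlier results of these data known. Array values are given for GCLC, GCLM, TXNRD1, SRXN1, NQO1, HMOX1, NFE2L2, KEAP1, OSGIN1 and GPX4, for the 3 members of each class with the smallest unadjusted p, and for any called or with probe sets of opposite sign at an unadjusted p under 0.05. Of each further list, the 2 genes with the smallest unadjusted p against scrambled siRNA are named, and other members are given by their differences. Alternatives were the replicate block, other filters, the mean of all probe sets, other scalings, 4 arrays only, a G2 and mitosis covariate, a trended prior and leaving out each array.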

Additional observations from a re-analysis of the deposited data

How the results depend on the processing

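No member had an adjusted p under 0.05 in any comparison under any alternative run. Without a filter on low values, 1 gene (NWD2, chosen after its value was seen) was called with VEGF-C siRNA against scrambled siRNA and 1 (again NWD2) between the depletions. The labels number the arrays 1 and 2 in each group without saying that a number marks a shared culture or day, and 2 numbers are too few to settle a pairing from the data. Deviations of equally numbered arrays correlated at 0.112 for scrambled and VEGF-C, 0.579 for scrambled and NRP-2, and 0.119 for VEGF-C and NRP-2 siRNA. In the fit with the replicate block, 0 genes were called in each comparison, and 6, 3 and 6 members had an unadjusted p under 0.05 for VEGF-C against scrambled, NRP-2 against scrambled and NRP-2 against VEGF-C siRNA (5, 4 and 6 without the block). At that threshold the block fit had 8.89% of all genes higher and 9.06% lower in the first comparison. The shares were 9.46% and 7.69% in the second, and 10.9% and 9.46% in the third. With the block, GSR, GSTK1 and HMOX1 came under that threshold and NFE2L2 and MGST1 left it in the first comparison, TXNRD1 left it in the second, and the third held the same 6 genes. The G2 and mitosis mean was higher on array 1 in all 3 groups. For the count of 5, the mean of all probe sets gave 3, with 6.65% of all genes higher and 7.05% lower. The comparison's 4 arrays alone gave 9 (8.8% and 9.07% of all genes). Adjustment for the G2 and mitosis mean gave 1 (3.58% and 3.76%) with a median of 0.092. For the count of 4, no filter gave 9 of 41 members, with 4.68% of all genes higher and 4.95% lower. That adjustment gave 2 (4.98% and 4.08% of all genes) and a trended prior gave 7 (6.68% and 7.02%). For the count of 6, no filter gave 10 of 41 members, with 6.27% of all genes higher and 6.41% lower. The 4 arrays alone gave 3 (7.08% and 6.32% of all genes).

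Taking the mean of all probe sets turned ME1 to −0.040 and MAFG to −0.035 (VEGF-C against scrambled siRNA), NFE2L2 to −0.014 (NRP-2 against scrambled siRNA) and GCLM to +0.15 (NRP-2 against VEGF-C siRNA). Shifting arrays to equal medians turned GCLC to +0.0089, and the G2 and mitosis adjustment turned SRXN1 to −0.029 and HMOX1 to −0.092 (NRP-2 against scrambled siRNA) and NQO1 to +0.023 (between the depletions). Leaving out each array in turn gave 2 to 9, 1 to 13 and 3 to 10 members at an unadjusted p under 0.05 in the 3 comparisons, with medians of 0.087 to 0.20, 0.034 to 0.31 and −0.082 to +0.12. Over the same fits, NRP-2 against scrambled siRNA ranged from −0.046 to +0.013 for GCLC, −0.052 to +0.31 for SRXN1 and −0.055 to +1.10 for HMOX1. NRP-2 against VEGF-C siRNA ranged from −0.41 to +0.17 for GCLM, −0.0054 to +0.23 for PRDX1, −0.13 to +0.11 for NQO1 and −0.94 to +0.22 for HMOX1. The cause of these turns was not tested. A lone array left in a group is assumed to vary like the others.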
